A study of Homo sapiens with 6 samples.

Results

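Collagens were measured in the endometriotic epithelial line 12Z, an established cell line, after knockdown of the long non-coding RNA LINC01133. The collagen genes were taken as every gene whose symbol is COL, a number, A and a number, without antisense genes or pseudogenes. This rule found 44 of the 60660 genes counted, and all 44 were matched to the GENCODE v44 annotation by gene identifier. RNA-sequencing covered 3 control libraries, from 12Z cells given a non-targeting siRNA, and 3 knockdown libraries, from 12Z cells given siRNA LINC01133a at 10 nM. All cells were harvested 72 h after transfection. A single siRNA to a single cell line was sequenced, so effects of LINC01133 loss and of the siRNA itself cannot be told apart. The study describes the libraries of a group as biological replicates. Neither the labels nor that description says that they came from separate cultures, so the p-values measure the spread between these libraries.

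Collagens are proteins of 3 chains wound into a triple helix, and each chain has its own gene. Fibrillar collagens assemble into the banded fibrils of connective tissue, basement membrane collagens form or attach to the sheet beneath epithelia, and FACIT collagens (fibril-associated collagens with interrupted triple helices) decorate fibrils. Network collagens build beaded filaments or hexagonal lattices, and transmembrane collagens are held in the cell surface. In endometriosis, collagen is a main part of the fibrotic tissue around lesions.

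Each file gave whole-number counts of read pairs per gene, made by the authors with STAR from reads that map to a single place. The libraries held 27742562 to 37551194 counts on genes. Control replicate 2 stood apart from the other controls, with a chi-square per degree of freedom over genes of 11.9 and 13.1 against them, while the other controls differed by 3.75 and the knockdown libraries by 2.20 to 3.50. The targeted gene LINC01133 had 813, 818 and 837 normalized counts in control libraries and 130, 131 and 138 in knockdown libraries, 16.1% of control. Normalized counts are counts scaled to the mean library size after TMM normalization. Levels compared between genes are in TPM, which divide counts by the exon length of the gene and sum to 1000000 in each library. Log2 fold changes are knockdown against control, with their standard error (SE), and p-values come from the quasi-likelihood test of edgeR, adjusted by the Benjamini-Hochberg method across the 15155 genes that passed the filter on low counts. A gene was called when its adjusted p was under 0.05, and differentially expressed (DE) when it also changed by more than 1.5-fold.

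The label of 12Z cells as epithelial was checked against marker genes. Among 6 epithelial markers, the keratins KRT8, KRT18 and KRT19 had 2032, 2507 and 2286 TPM in control libraries, whereas EPCAM had 0.748 TPM and CDH1 9.09 TPM. Markers of stromal fibroblasts were also present in control libraries, with 723 TPM of POSTN, 581 TPM of LUM and 212 TPM of THY1. DCN (60.8 TPM) and PDGFRB (46.4 TPM) were less abundant, and PDGFRA had 3.49 TPM. The keratins of epithelia were thus abundant and EPCAM scarce, beside stromal markers of which POSTN, LUM and THY1 were abundant and PDGFRA scarce. The summed level of the epithelial list went from 6694 to 7128 TPM in control to 4311 to 4432 TPM in knockdown libraries, with 5 of 6 genes called lower. The stromal list went from 1521 to 1752 TPM to 1377 to 1443 TPM, with 6 of 6 genes called lower (5 when scaled by library size alone), where 25.0% of all genes tested were called lower. Markers of other cell types, read here in RNA of a cell line, had few transcripts, apart from CD14, TAGLN and KDR. These had 139, 96.3 and 32.0 TPM in control libraries. The endothelial list went from 36.3 to 38.4 TPM to 24.4 to 26.4 TPM, mostly KDR, with PECAM1 and CLDN5 too low to test. Its tested members did not move together. CDH5 was called higher (log2 fold change 1.45), TIE1 (-1.58) and KDR (-0.68) were called lower, and VWF (0.29) was not called. The immune list went from 129 to 150 TPM to 66.8 to 72.8 TPM, nearly all of it CD14. PTPRC was at 0.207 TPM in control libraries and CD3E at 0 in every library. CD14 was called lower (log2 fold change -0.98, adjusted p = 1.4e-08 by edgeR), and PTPRC (-0.24) was not called. The smooth muscle list, mostly TAGLN, went from 92.8 to 112 TPM to 106 to 130 TPM, with MYH11 and DES too low to test. CNN1 (log2 fold change 1.37) and ACTA2 (0.48) were called higher. TAGLN (0.18) was not called, though it was when scaled by library size alone. The part of these shifts in the collagen results was not tested. In bulk RNA of a cell line, a change in the mix of its cells and a change in RNA per cell cannot be told apart.

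The small RNAs that bear on collagen transcripts are shown first, because the knockdown rests on one of them. The siRNA LINC01133a strands come from the study's table of reagents, and the miR-29 family, known as a repressor of collagen mRNAs, comes from RefSeq (GRCh38.p14). Capitals mark the seed, bases 2 to 8.
siRNA LINC01133a guide strand: uCCAUUCUcagguaacuucaa
siRNA LINC01133a passenger strand: gAAGUUACcugagaauggatt
hsa-miR-29a-3p: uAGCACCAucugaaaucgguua
hsa-miR-29b-3p: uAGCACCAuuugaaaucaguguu
hsa-miR-29c-3p: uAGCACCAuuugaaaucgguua

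The 3 miR-29 members share 1 seed, which pairs with TGGTGCT in a transcript, while the siRNA guide and passenger seeds pair with AGAATGG and GTAACTT. Each word was searched on the sense strand of the 3′ UTR of the main annotated transcript. Of the 28 collagen genes that passed the filter on low counts, 18 (64.3%) held the miR-29 word, against 16.6% of 12538 tested genes with a 3′ UTR. Collagen 3′ UTRs held 0.698 matches per kb, against 0.0997 over all these genes. COL5A1 had 4 matches, the most of any tested collagen, and COL5A3 and COL4A4 had 3 each. Matches in 4 abundant collagens and in the scarce COL6A3, which was DE, are shown on the transcript strand, with the word in capitals.
COL1A1, chr17:50184563-50184589, minus strand: agggaatcacTGGTGCTatagaaattg
COL3A1, chr2:189012006-189012032, plus strand: aatgtctcaaTGGTGCTataataaata
COL5A1, chr9:134843372-134843398, plus strand: ggctctcttgTGGTGCTatctatctgt
COL5A2, chr2:189032864-189032890, minus strand: cctttaatgaTGGTGCTaaaattcttc
COL6A3, chr2:237324592-237324618, minus strand: cctatcagtaTGGTGCTaatgtgtctg

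The median log2 fold change was -0.09 both for the 18 collagen genes with the miR-29 word and for the 10 without it. Collagen genes with and without the word therefore had like medians in this comparison, and a match is a description of the letters, not a functional site.

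The word of the siRNA guide occurred in 3 of the 28 collagen 3′ UTRs (10.7%), against 17.1% of all tested genes with a 3′ UTR. Those were COL5A1, COL5A3 and COL8A1, and their sites are shown because these genes return in the results below.
COL5A1, chr9:134842957-134842983, plus strand: tcccacggacAGAATGGgcgaggcatg
COL5A3, chr19:9960358-9960384, minus strand: agggagccccAGAATGGggtgcatttg
COL8A1, chr3:99796763-99796789, plus strand: tgtctctaaaAGAATGGgtgaaccaat

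COL5A1 and COL8A1 were lower in knockdown libraries and COL5A3 was not called, with a log2 fold change of 0.53. The passenger word was found in COL4A4, COL9A3, COL12A1 and COL8A1, 4 of 28 (14.3%) against 13.6% of all such genes. COL8A1 was the only tested collagen with both siRNA words. Over all tested genes, the median log2 fold change was -0.09 with the guide word and 0.00 without it, and over the collagens it was -0.33 for the 3 with the word and -0.08 for the 25 without. No test was made of these medians, and whether the siRNA acted on any of these transcripts was not tested.

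Collagen RNA was abundant in 12Z cells and dominated by a few chains. Summed over all 44 genes it came to 5812 ± 338 TPM in control and 5845 ± 64.3 TPM in knockdown libraries (SD, n = 3 each), or 1.11% ± 0.0431 and 1.16% ± 0.0103 of all counts. Fibrillar genes made up 82.6% to 83.0% of the collagen TPM in control and 83.8% to 84.0% in knockdown libraries. Basement membrane genes went from 8.73% to 9.17% down to 8.34% to 8.42%, and network genes from 5.74% to 6.38% down to 5.22% to 5.41%. FACIT genes held 1.86% to 2.53% in control and 2.36% to 2.56% in knockdown libraries, with overlap. The total thus stayed level while the composition shifted by about a percentage point or less per class.

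**Figure D1:**
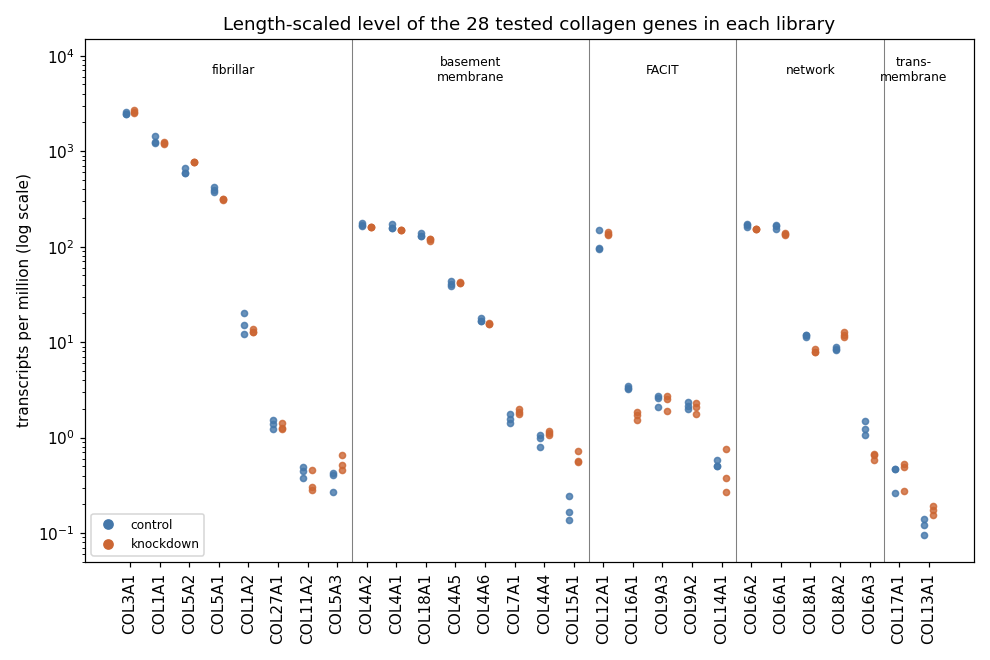
Level of the 28 tested collagen genes in TPM on a log scale, by class, with a point for each control (blue) and knockdown (orange) library. COL3A1 and COL1A1 lie above 1000 TPM, COL1A2 lies between 12.2 and 20.1 TPM in control libraries, and the transmembrane genes lie below 1 TPM.

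Of the 44 genes, 16 did not pass the filter on low counts and were not tested. COL9A1, COL19A1, COL22A1, COL6A5, COL10A1 and COL23A1 had 0 counts in all 6 libraries, which allows up to 3 counts per library, or 0.0799 to 0.108 counts in 1000000 (CPM). COL20A1, COL21A1, COL6A6, COL28A1 and COL25A1 had 1 to 4 counts in total over the 6 libraries. COL2A1, COL11A1, COL24A1, COL4A3 and COL26A1 had 10 to 39 counts in total. Among chains known from cartilage, COL2A1, COL9A1, COL10A1 and COL11A1 were thus at or near 0, while COL9A2 (2.18 TPM), COL9A3 (2.48 TPM) and COL11A2 (0.439 TPM) were measured at low levels in control libraries.

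Among the 28 tested collagens, 12 (42.9%) had an adjusted p under 0.05, against a background of 48.3% of all genes tested. Of these, 3 were higher in knockdown libraries (background 23.3%) and 9 lower (background 25.0%). DE was called for 3 of 28 (10.7%, background 11.7%), with COL15A1 higher (background 5.30%) and COL16A1 and COL6A3 lower (background 6.43%). Control and knockdown libraries did not overlap for 17 of 28 (60.7%, background 57.3%), 7 higher and 10 lower. Among those higher, COL15A1 and COL13A1 passed the filter on low counts through the knockdown libraries. As a group the collagens were thus called about as often as other genes, with more of them lower than higher. Their median log2 fold change was -0.09, against 0.00 over all genes. Scaled by library size alone, the split was 6 higher and 5 lower, because COL3A1, COL4A5 and COL12A1 were then called higher and COL4A1, COL4A6, COL18A1 and COL6A2 were no longer called.

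**Figure D2:**
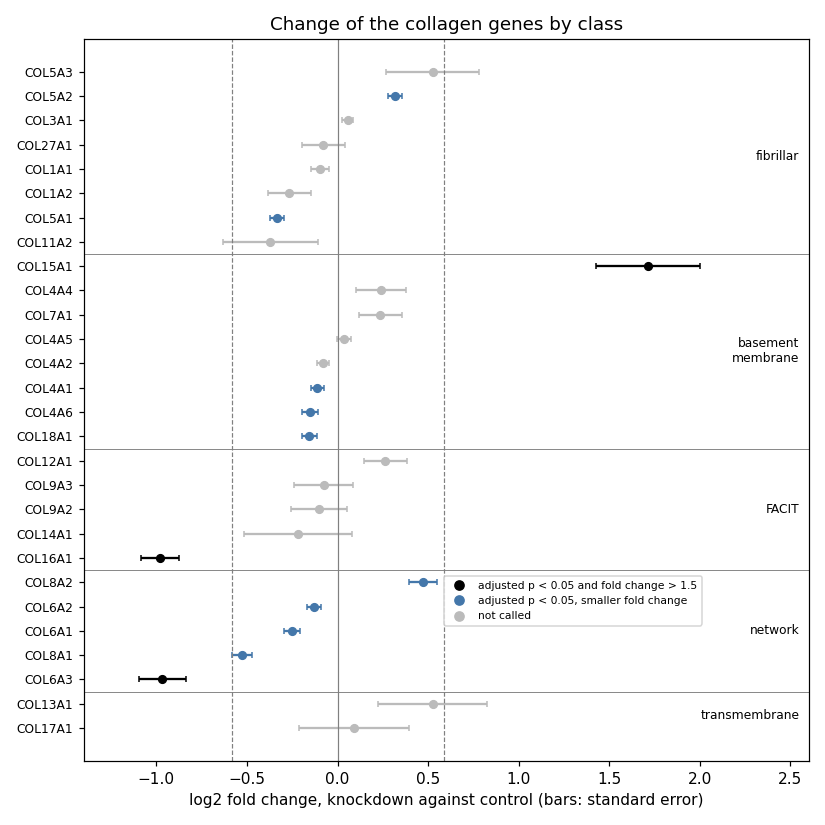
Log2 fold change of each tested collagen gene, knockdown against control, with its standard error, by class. Dashed lines mark a fold change of 1.5. COL15A1 at 1.72, COL16A1 at -0.98 and COL6A3 at -0.97 lie beyond the lines with an adjusted p under 0.05.

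The fibrillar class had 11 members, of which 8 were tested, 1 was higher, 1 lower and none DE by edgeR or by DESeq2. Over all genes tested, 23.3% were higher, 25.0% lower and 11.7% DE by edgeR. COL3A1, the single chain of type III collagen, was the most abundant collagen at 2483 TPM in control and 2584 TPM in knockdown libraries. It had 124851, 127877 and 123709 normalized counts in control and 129041, 128582 and 133479 in knockdown libraries. Each knockdown library was above each control, yet the difference was small and was not called (log2 fold change 0.06, SE 0.03, adjusted p = 0.18).

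Type I collagen, the main protein of scar, has chains from COL1A1 and COL1A2. COL1A1 had 84507, 95904 and 82688 normalized counts in control and 84322, 81961 and 79924 in knockdown libraries. These groups overlapped, and the difference was not called (log2 fold change -0.10, SE 0.05, adjusted p = 0.13). By edgeR it was -0.13 with an adjusted p of 0.044 without control replicate 3, and -0.03 with 0.50 without control replicate 2. COL1A2 had 1239, 1593 and 992 normalized counts in control and 1049, 1105 and 1015 in knockdown libraries. Control replicate 2 was the highest and control replicate 3 the lowest of the 6, and the difference was not called (log2 fold change -0.27, SE 0.12, adjusted p = 0.082). Without control replicate 3, the log2 fold change of COL1A2 was -0.41 with an adjusted p of 0.0021 by edgeR. Without control replicate 2, which stood apart over all genes, it was -0.08 with an adjusted p of 0.35. COL1A2 was called in no other fit with a library left out. The usual type I trimer holds more COL1A1 than COL1A2 chains, but here the RNA was far more unequal. Per length, COL1A1 was 84.7 ± 14.1 times as abundant as COL1A2 in control and 93.4 ± 3.88 times in knockdown libraries (SD, n = 3), with overlap and an exact permutation p of 0.4. In other words, 12Z cells had much COL1A1 RNA and little COL1A2 RNA, in both conditions.

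Type V collagen, which sits inside type I fibrils and sets their width, is built mostly from COL5A1 and COL5A2 chains, and these changed in opposite directions. COL5A1 had 32753, 34565 and 31456 normalized counts in control and 26565, 25876 and 26015 in knockdown libraries, all knockdown libraries being lower (log2 fold change -0.33, SE 0.04, adjusted p = 1.4e-05 by edgeR). COL5A2 had 33022, 35459 and 32865 normalized counts in control and 42395, 42170 and 41624 in knockdown libraries, all knockdown libraries being higher (log2 fold change 0.32, SE 0.04, adjusted p = 1.4e-05). Neither reached the fold change for DE. The share of COL5A2 in the collagen TPM went from 10.6% ± 0.0961 to 13.2% ± 0.152 (SD, n = 3).

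COL5A3, the third chain of type V, was scarce, with 20.8, 13.5 and 21.8 normalized counts in control and 26.3, 23.3 and 32.9 in knockdown libraries. The groups did not overlap, but at this depth the difference was not called (log2 fold change 0.53, SE 0.26, adjusted p = 0.11). COL11A2 (log2 fold change -0.37, adjusted p = 0.26) and COL27A1 (-0.08, adjusted p = 0.61) overlapped between groups, with 24.2 ± 3.63 and 145 ± 16.3 normalized counts in control libraries.

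**Figure D3:**
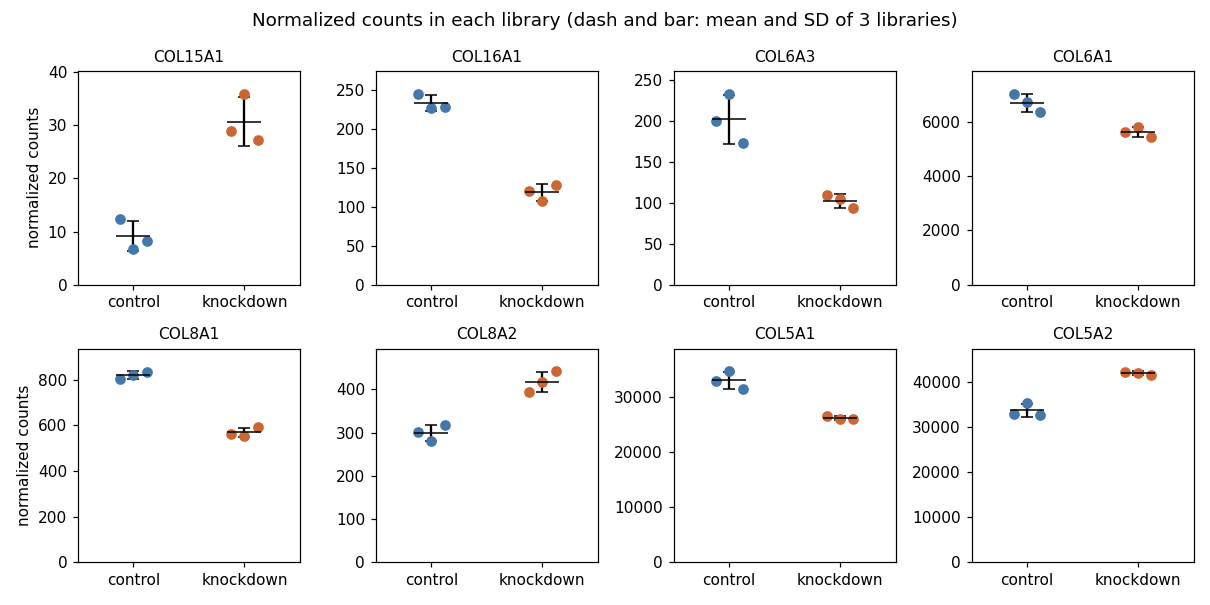
Normalized counts of 8 collagen genes in each library, from 0, with the mean and SD of 3 libraries per group. The 8 genes were picked from those with an adjusted p under 0.05 by edgeR. Control and knockdown libraries do not overlap in any panel, which follows in part from this choice (57.3% over all genes tested). COL15A1, COL8A2 and COL5A2 are higher and the others lower in knockdown libraries. COL15A1 passed the filter on low counts through the knockdown libraries.

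In the basement membrane class, 8 of 9 members were tested, of which 1 was higher and 3 lower, or 2 and 0 when scaled by library size alone. Over all genes tested, 23.3% were called higher and 25.0% lower. COL15A1, the core of a proteoglycan at the outer face of basement membranes, lies at chr9:98943179-99070792 (GRCh38, plus strand) and had the largest change of the tested collagens. It had 12.3, 6.76 and 8.29 normalized counts in control and 28.8, 35.9 and 27.2 in knockdown libraries. Every knockdown library was above every control, a rise of 3.28-fold (log2 fold change 1.72, SE 0.29, adjusted p = 2.7e-04 by edgeR). The raw counts behind it were 13, 6 and 8 in control and 34, 37 and 24 in knockdown libraries. COL15A1 thus passed the filter on low counts through the knockdown libraries, the group in which it was high, and was not tested when at least 10 counts were required in every library. It stayed among the scarcest tested collagens, at 0.183 and 0.617 TPM. COL18A1, whose C-terminal fragment is endostatin, fell from 8348 ± 473 to 7495 ± 121 normalized counts (SD, n = 3; log2 fold change -0.16, SE 0.04, adjusted p = 0.0085 by edgeR). Without knockdown replicate 1, its adjusted p was 0.056.

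Type IV collagen is the scaffold of every basement membrane, and its genes lie in head-to-head pairs. COL4A1 and COL4A2, the chains of the common trimer, start 126 bases apart on opposite strands. The stretch between the RefSeq starts, chr13:110307158-110307283 (GRCh38.p14, plus strand), is shown because both genes read out from it. Capitals mark the CCAAT word and the GC box GGGCGG, each searched on both strands.
COL4A1 to COL4A2: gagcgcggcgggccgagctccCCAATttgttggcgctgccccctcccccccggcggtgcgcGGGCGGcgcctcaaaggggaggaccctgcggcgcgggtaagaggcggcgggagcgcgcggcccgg

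Among the 126 bases before each RefSeq start, 21.1% of all promoters and 24.9% of those of tested genes held the CCAAT word, and 34.6% and 57.4% held a GC box. COL4A1 had 17215, 18420 and 17168 normalized counts in control and 16574, 16238 and 16075 in knockdown libraries. COL4A2 had 24481, 25002 and 23850 in control and 23227, 22992 and 23152 in knockdown libraries. For both genes all knockdown libraries were lower, by little. COL4A1 was called (log2 fold change -0.11, SE 0.04, adjusted p = 0.027 by edgeR) and COL4A2 was not (-0.08, SE 0.03, adjusted p = 0.067). Both genes lay near the cutoff of 0.05. COL4A1 had adjusted p-values of 0.055 without control replicate 2, and 0.068, 0.095 and 0.086 without knockdown replicates 1, 2 and 3, by edgeR. COL4A2 had an adjusted p of 0.044 without control replicate 3 and 0.049 with unstranded counts by edgeR, and 0.048 by DESeq2. Per length, COL4A1 was 0.946 ± 0.0221 times as abundant as COL4A2 in control and 0.926 ± 0.0128 times in knockdown libraries (SD, n = 3), with overlap and an exact permutation p of 0.3. With the length of the longest transcript, the control ratio was 0.710, so how near the pair was in level depends on the length used.

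The pair COL4A5 and COL4A6, on the X chromosome with 379 bases between their starts, was less abundant. COL4A5 had 3508, 3755 and 3638 normalized counts in control and 3719, 3683 and 3764 in knockdown libraries, with overlap (log2 fold change 0.03, SE 0.04, adjusted p = 0.48). COL4A6 had 1181, 1212 and 1177 in control and 1073, 1062 and 1081 in knockdown libraries, all lower (log2 fold change -0.15, SE 0.04, adjusted p = 0.011 by edgeR). The COL4A5 to COL4A6 ratio went from 2.39 ± 0.0563 to 2.71 ± 0.00702 (SD, n = 3), without overlap, at the exact permutation p of 0.1 that is the smallest 3 against 3 libraries can give.

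In the pair COL4A4 and COL4A3, found together with COL4A5 in the kidney, COL4A3 was not tested. COL4A4 had 71.9, 91.2 and 89.1 normalized counts in control and 103, 99.0 and 93.0 in knockdown libraries. All knockdown libraries were higher, though COL4A4 was not called (log2 fold change 0.24, SE 0.14, adjusted p = 0.17). COL7A1, the chain of anchoring fibrils, was not called either (131 ± 16.4 and 155 ± 8.96 normalized counts, adjusted p = 0.12).

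The FACIT class had 10 members and 5 tested, of which COL16A1 was lower and none was higher by edgeR or DESeq2 (1 higher at an unadjusted p under 0.05). Over all genes tested, 25.0% were lower and 23.3% higher by edgeR. COL16A1 lies at chr1:31652263-31704319 (GRCh38, minus strand) and encodes a collagen that links fibrils to their surroundings. It had 245, 226 and 228 normalized counts in control and 120, 107 and 128 in knockdown libraries. Every knockdown library was well below every control, and the level fell to 50.6% of control (log2 fold change -0.98, SE 0.10, adjusted p = 5.4e-06 by edgeR).

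COL12A1, a FACIT of tissues under tension, was the most abundant of its class at 114 TPM in control libraries. It had 13940, 20567 and 13460 normalized counts in control and 20311, 18448 and 18813 in knockdown libraries. Control replicate 2 was the highest of all 6 libraries, and with it the groups overlapped (log2 fold change 0.26, SE 0.12, adjusted p = 0.081). Without control replicate 2, which stood apart from the other controls over all genes, COL12A1 had a log2 fold change of 0.48 and an adjusted p of 2.5e-09 by edgeR. COL9A2, COL9A3 and COL14A1 had 35.7 to 89.8 normalized counts per group and overlapped, with log2 fold changes of -0.10, -0.08 and -0.22 and adjusted p-values of 0.62, 0.73 and 0.57. COL14A1 was DE without knockdown replicate 3, at -0.69 with an adjusted p of 0.034 by edgeR. Without knockdown replicate 2 its sign changed, at 0.06 with an adjusted p of 0.89. For COL9A3, 21.6% of stranded counts were on the opposite strand, where TCFL5 lies.

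In the network class all 5 tested members of 10 were called (48.3% over all genes), 1 higher and 4 lower, or 1 and 3 when scaled by library size alone. Type VI collagen, the beaded filament near cell surfaces, needs the chains of COL6A1, COL6A2 and 1 of the longer chains such as COL6A3. COL6A1 had 7006, 6733 and 6338 normalized counts in control and 5629, 5786 and 5439 in knockdown libraries, all lower (log2 fold change -0.25, SE 0.04, adjusted p = 3.2e-04 by edgeR). COL6A2 had 7011, 6561 and 6421 in control and 6091, 6106 and 6080 in knockdown libraries, all lower (log2 fold change -0.13, SE 0.04, adjusted p = 0.015 by edgeR). The call of COL6A2 was lost without control replicate 1 (adjusted p = 0.060) and without knockdown replicates 1 (0.066) or 2 (0.055).

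COL6A3, at chr2:237324003-237414328 (GRCh38, minus strand), had 200, 233 and 173 normalized counts in control and 109, 105 and 93.0 in knockdown libraries. Every knockdown library was below every control, and the level fell to 51.1% of control (log2 fold change -0.97, SE 0.13, adjusted p = 4.1e-05 by edgeR). The partner chains were far more abundant, at 162 TPM of COL6A1 and 167 TPM of COL6A2 against 1.26 TPM of COL6A3 in control libraries. Per length, COL6A3 was 0.00776 ± 0.00101 times as abundant as COL6A1 in control and 0.00469 ± 0.0003 times in knockdown libraries (SD, n = 3), without overlap. With the length of the longest transcript in place of the joined exons, the control ratio was 0.0120. In 12Z cells the longer chain of type VI was thus scarce before the knockdown and scarcer after it, and COL6A5 and COL6A6 were at 0 to 3 counts per library.

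Type VIII collagen, a short-chain network collagen of blood vessels and of the membrane beneath the corneal endothelium, is made from COL8A1 and COL8A2. COL8A1 had 804, 821 and 835 normalized counts in control and 560, 555 and 591 in knockdown libraries, all lower (log2 fold change -0.53, SE 0.05, adjusted p = 3.9e-06 by edgeR). COL8A2 had 301, 280 and 317 in control and 394, 417 and 441 in knockdown libraries, all higher (log2 fold change 0.47, SE 0.08, adjusted p = 2.4e-04 by edgeR). Neither reached the fold change of 1.5 in any fit run, while the COL8A1 to COL8A2 ratio went from 1.36 ± 0.0795 to 0.677 ± 0.0244 per length (SD, n = 3). By exon length, the more abundant chain of type VIII was thus COL8A1 in control and COL8A2 in knockdown libraries. This order depends on the length used. With the longest transcript the control ratio was 2.25, and COL8A1 stayed the more abundant chain in knockdown libraries. The log2 change of the ratio, -1.01, does not depend on the lengths.

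Over the 10 ratios between chains of one type, 7 separated the control from the knockdown libraries. Each of these had an exact two-sided permutation p of 0.1, the smallest possible, and 0.143 after Benjamini-Hochberg adjustment over the 10. Of all single genes tested, 57.3% also separated the groups, and no such share was computed for ratios of other gene pairs. Some chains are in more than 1 ratio. The ratio of COL5A1 to COL5A2 went from 0.650, 0.639 and 0.628 to 0.411, 0.402 and 0.410 per length, with little spread within either group. The ratio of COL6A1 to COL6A2 went from 0.968 ± 0.0193 to 0.888 ± 0.0256 (SD, n = 3), a small but separate difference. The COL4A1 to COL4A2, COL1A1 to COL1A2 and COL9A2 to COL9A3 ratios overlapped.

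**Figure D4:**
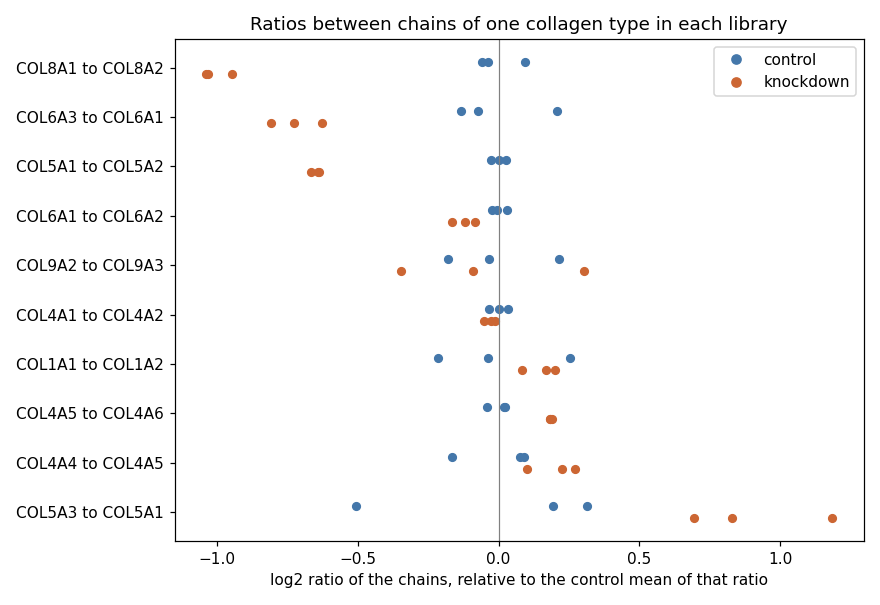
Log2 ratio between chains of one collagen type in each control (blue) and knockdown (orange) library, relative to the control mean of that ratio. The COL8A1 to COL8A2, COL6A3 to COL6A1 and COL5A1 to COL5A2 ratios are lower in all 3 knockdown libraries, by 1.01, 0.72 and 0.65 on the log2 scale.

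Transmembrane collagens were scarce, and of 4 members the 2 tested ones, COL17A1 and COL13A1, were not called by edgeR or DESeq2, with 0 at an unadjusted p under 0.05. COL17A1, which anchors basal keratinocytes in hemidesmosomes, had 24.6, 13.5 and 24.9 normalized counts in control and 26.3, 14.6 and 27.2 in knockdown libraries. Its groups overlapped (log2 fold change 0.09, SE 0.30, adjusted p = 0.83). COL13A1 had 10.2 ± 2.01 and 14.9 ± 1.48 normalized counts without overlap, and was not called (log2 fold change 0.53, SE 0.30, adjusted p = 0.18). Its raw counts were 13, 9 and 8 in control and 16, 17 and 13 in knockdown libraries. COL13A1 thus passed the filter on low counts through the knockdown libraries, where it was higher. It was not tested when at least 10 counts were required in every library.

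The genes that make, fold and cut collagen moved in both directions, and their counts stand beside 23.3% of all genes called higher and 25.0% called lower. The first 14 genes were hydroxylases and glycosyltransferases, which modify proline and lysine of the chains, with their partners CRTAP and PPIB. Of these 14, 4 were higher and 7 lower, or 5 and 5 when scaled by library size alone. COLGALT2 (log2 fold change 0.71) and PLOD3 (0.25) were highest and P4HA3 (-0.51) and P4HA1 (-0.39) lowest. Of 12 genes of folding and export, 4 were higher and 6 lower, or 4 and 4 when scaled by library size alone. FKBP10 (0.33) and SEC31A (0.31) were highest and LARP6 (-0.87, adjusted p = 9.6e-08 by edgeR) and CREB3L1 (-0.42) lowest. LARP6 binds a stem-loop in type I collagen mRNAs, and CREB3L1 is a transcription factor that activates type I collagen genes.

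Of 8 tested genes of procollagen processing, 4 were higher and 2 lower (23.3% and 25.0% over all genes). TLL1, a proteinase that cuts the C-propeptide, rose (log2 fold change 1.03, adjusted p = 4.8e-07 by edgeR) with FURIN (0.39), and PCOLCE2, an enhancer of that cut, fell (-1.23, adjusted p = 7.0e-06) with ADAMTS3 (-0.27). All 7 cross-linking genes were called (48.3% over all genes), 4 higher and 3 lower by edgeR and 2 higher and 3 lower by DESeq2. LOXL4 (0.52) and LOXL1 (0.45) were highest, and TGM2 (-1.71, adjusted p = 4.4e-06 by edgeR) and LOX (-0.49) were lowest. The lysyl oxidases moved apart, since LOX fell whereas LOXL1 and LOXL2 (0.27) rose. LOXL3 (0.27) and LOXL4 were called higher by edgeR, with an adjusted p of 0.086 each by DESeq2.

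Of 11 tested collagen receptors, 6 were lower and 0 higher by edgeR, also 0 higher at an unadjusted p under 0.05 and 0 by DESeq2, with 1 higher when scaled by library size alone, beside backgrounds of 25.0% and 23.3% of all genes. ITGA11, an integrin for fibrillar collagens, fell most (log2 fold change -0.80, adjusted p = 3.3e-05 by edgeR), followed by CSPG4 (-0.72) and ITGA2 (-0.62), and by ANTXR2 (-0.28) and MRC2 (-0.20) at the other end. The other 5 were not called, among them ITGA10 (0.55, adjusted p = 0.20). The shared subunit ITGB1 (0.05, adjusted p = 0.36) and the receptor kinases DDR1 (0.06, adjusted p = 0.30) and DDR2 (-0.01, adjusted p = 0.90) were not called, although ITGB1 was called higher when scaled by library size alone (0.11, adjusted p = 0.019). Among 6 tested collagenases and uptake genes, MMP14 (0.13) was higher and CTSL (-0.39), MMP2 (-0.44) and MMP1 (-1.01, with an adjusted p of 0.058 by DESeq2) were lower.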

How the data were processed

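Poly-A RNA-sequencing of 12Z cells was analysed, with 3 control and 3 LINC01133 knockdown libraries grouped by their labels. The authors aligned reads with STAR 2.7.6a to GRCh38.p13 with GENCODE v36, kept unique mappings, and deposited raw counts of read pairs per gene. Of the 3 count columns, the column for the opposite strand was taken, because it held 93.9% to 94.1% of stranded counts. Depth was 27742562 to 37551194 counts per library, and precision is given by SD or SE over 3 libraries. Sample labels and the paper name different library kits.

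Genes were kept by filterByExpr (minimum count 10) and compared with edgeR 4.0.16 (R 4.3.3), TMM normalization and the quasi-likelihood test, with condition as the only term. The scripts were tested on simulated data. TPM used joined exon lengths of GENCODE v44 on GRCh38, matched by identifier for 60419 of 60660 genes. Promoter windows from RefSeq were at hand for 20 of the 28 tested collagens. Sites in collagen 3′ UTRs, of which the report prints a few, were compared with the genome, and 53 of 53 were equal.

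Collagen classes and gene lists were chosen with earlier results of these data known. Values in every library were given for DE collagens, for tested chains of types I, III, IV, V and VI, and for the gene with the highest TPM of each class. For COL8A1 and COL8A2 they were added after their values were seen, as were LOXL2, LOXL3, ITGA2, ITGB1, DDR1 and DDR2. In each other list, the 2 genes that were highest and the 2 that were lowest in log2 fold change among those called were named. Alternatives were DESeq2 1.42.0, scaling by median-of-ratios factors or by library size alone, testing without a filter or with a minimum of 10 counts in each library, counting without strand, a replicate block, glmTreat, the longest transcript as length, and each library left out. Replicate numbers did not pair the samples.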

Additional observations from a re-analysis of the deposited data

How the results depend on the processing

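The count of collagens with an adjusted p under 0.05 (12) lay between 9 and 15 when 1 library was left out and between 11 and 15 in the other alternatives, apart from glmTreat, which tests against a fold change of 1.5. With glmTreat it was 3 (COL15A1, COL16A1 and COL6A3), and DE genes among all genes went from 1778 to 578. COL16A1 and COL6A3 were DE in all 15 fits and COL15A1 in 14 of 14, since it failed a minimum of 10 counts in every library. COL5A1, COL5A2, COL6A1, COL8A1 and COL8A2 kept an adjusted p under 0.05 and their direction in every fit except glmTreat. Scaled by library size alone, 55.9% of DE genes were higher, against 45.2% with TMM. Without a filter, COL1A1 (adjusted p = 0.019), COL1A2 (1.9e-05) and COL12A1 (1.3e-10) were called, and the cause was not tested. Same-numbered libraries did not deviate together (correlations of -0.01, 0.00 and 0.05), and the replicate block gave 14 called collagens, COL1A2 (adjusted p = 0.024) and COL12A1 (0.035) being added, with LINC01133 at -2.63. Of 10 chain ratios, 7 or 8 separated the groups when 1 library was left out, and 6 with the unstranded counts. Genes with under 50 counts, such as COL15A1, COL5A3 and COL13A1, have SE of 0.26 to 0.30, so that a difference like that of COL5A1 was not detectable in them at this depth.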
